A study of Rattus norvegicus with 8 samples.

Results

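The 9 genes described here encode parts of the cytokine system that signals through the shared receptor subunit gp130. They are the receptor subunit genes Cntfr, Lifr, Osmr, Il6r and Il6st, the ligand genes Lif and Clcf1, the transcription factor gene Stat3 and the feedback inhibitor gene Socs3. Members were chosen by gene symbol from the annotation of the array, with earlier results of the same contrast known, among them the large difference of Cntfr. Their differences are therefore given as a description, with no test. All 9 were found, each with 1 probe set, among 18166 named genes. Gene positions are those of RefSeq on GRCr8, and the build behind the array's probe sets is not known here.

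Cytokines of this family bind receptor complexes that contain gp130, the product of Il6st. In a complex with the leukaemia inhibitory factor receptor (Lifr) it transmits the signals of leukaemia inhibitory factor and, once the ciliary neurotrophic factor receptor subunit (Cntfr) has bound its ligand, those of ciliary neurotrophic factor. Cntfr and the interleukin 6 receptor (Il6r) bind ligand but do not signal on their own. Janus kinases on the assembled receptor phosphorylate STAT3, which enters the nucleus and induces, among other genes, Socs3, whose product shuts the receptor down. In the lung, signals through gp130 are known for protecting the alveolar epithelium in injury and infection.

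The cells were alveolar type II (ATII) cells, the surfactant-producing epithelial cells of the lung, freshly isolated from 4 male Sprague Dawley rats of unstated age. In the AdHIF1a group (4 wells) they were transduced with an adenovirus for a constitutively active mutant of HIF1a, the subunit through which hypoxia-inducible factor responds to oxygen, and in the AdGFP group (4 wells) with one for green fluorescent protein. Both groups therefore carry an adenovirus, added at an MOI (infectious units per cell) of 20, with 2% fetal bovine serum and 3 h of incubation. No untransduced wells were analysed here. All wells were then plated on 80% rat tail collagen and 20% Matrigel with 5% rat serum, and RNA was taken after 24 h. The 4 pairs of wells came from different rats on different dates, so rat and date cannot be told apart, and all differences are AdHIF1a minus AdGFP within rats.

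Values are log2 signals of 1 Affymetrix array per well. A gene was called where its adjusted p in the paired limma fit over all genes lay under 0.05, which held for 13.4% of genes (5.68% higher and 7.77% lower). Array medians lay between 5.02 and 5.20 in AdHIF1a wells and between 5.00 and 5.13 in AdGFP wells, and signals near those medians may lie near the floor. The probe set of Hif1a averaged 10.64 ± 0.12 in AdHIF1a wells and 11.12 ± 0.13 in AdGFP wells (SD, n = 4 each; difference -0.48 ± 0.08 SE). The transgene may or may not match these probes, whose sequences are not known here, so this does not check the labels.

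Cntfr (probe set 17813453, chr5:61619326-61657359), the ligand-binding subunit for ciliary neurotrophic factor, was far higher in AdHIF1a wells, by 4.08 log2 units, where the subunits it signals through, Il6st and Lifr, differed by 0.23 and 0.16. Its log2 signal was 9.14, 9.38, 9.14 and 9.99 in the AdHIF1a wells of rats 1 to 4, against 5.55, 5.18, 5.43 and 5.17 in their AdGFP wells. Every AdHIF1a well lay above every AdGFP well, and rat 4 had both the highest AdHIF1a value and the lowest AdGFP value. The means were 9.41 ± 0.40 in AdHIF1a wells and 5.33 ± 0.19 in AdGFP wells (SD, n = 4 each). The difference was 4.08 ± 0.22 (SE), a 16.9-fold difference (95% interval 11.6 to 24.7), and only 9 of the 18166 genes had a larger one. Within rats 1 to 4 it was 3.59, 4.20, 3.71 and 4.82 log2 units, and 97.5% of genes had differences that varied less between rats. The AdGFP signals sat just above the array medians and the files hold no detection calls, so the size of the fold is not exact.

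Il6st (probe set 17735754, chr2:45798872-45839501), the gene of gp130, had log2 signals of 10.84, 10.66, 10.86 and 10.67 in the AdHIF1a wells of rats 1 to 4, and 10.57, 10.46, 10.56 and 10.52 in their AdGFP wells. The groups did not overlap, and all 4 rats had the higher value with AdHIF1a, but the gap was small. The difference was 0.23 ± 0.08 (SE), or 1.17-fold (95% interval 1.02 to 1.35), and varied little between rats (0.15 to 0.30). With quantile normalization it was 0.27, and with each array centred on its median 0.15. Median centring lowers the difference of every gene by the same amount, and the median over all genes went from -0.005 to -0.0875.

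Lifr (probe set 17736233, chr2:57951787-58020357), the partner of gp130 for both leukaemia inhibitory factor and ciliary neurotrophic factor, had log2 signals of 8.44, 8.03, 8.09 and 7.97 in the AdHIF1a wells of rats 1 to 4, against 7.82, 7.93, 8.09 and 8.05 in their AdGFP wells. The groups overlapped, and rat 1 stood apart with the highest AdHIF1a and the lowest AdGFP value. The difference was 0.16 ± 0.14 (SE; 95% interval -0.19 to 0.51), and 0.01 without rat 1.

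Osmr (probe set 17745625, chr2:57634517-57688802), which pairs with gp130 to receive oncostatin M, had log2 signals of 9.91, 10.06, 9.78 and 9.56 in the AdHIF1a wells of rats 1 to 4, against 9.89, 9.65, 9.64 and 9.84 in their AdGFP wells. It was higher with AdHIF1a in 3 rats and lower in rat 4, and the groups overlapped. The difference was 0.07 ± 0.13 (SE; 95% interval -0.25 to 0.40), with the sign turned after median centring (-0.01) and without rat 2 (-0.04).

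Il6r (probe set 17748948, chr2:177582020-177646705), the ligand-binding subunit for interleukin 6, had log2 signals of 5.96, 5.98, 6.00 and 5.90 in the AdHIF1a wells of rats 1 to 4, against 5.61, 5.67, 5.93 and 5.49 in their AdGFP wells. All 4 rats had the higher value with AdHIF1a, although the AdGFP well of rat 3 reached into the AdHIF1a range. The AdHIF1a wells lay unusually close together, with an SD of 0.04, smaller than that of all but 3.51% of genes. The difference was 0.285 ± 0.095 (SE), or 1.22-fold (95% interval 1.03 to 1.44), with signals not far above the array medians. It was 0.20 both with quantile normalization and after median centring.

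**Figure D1:**
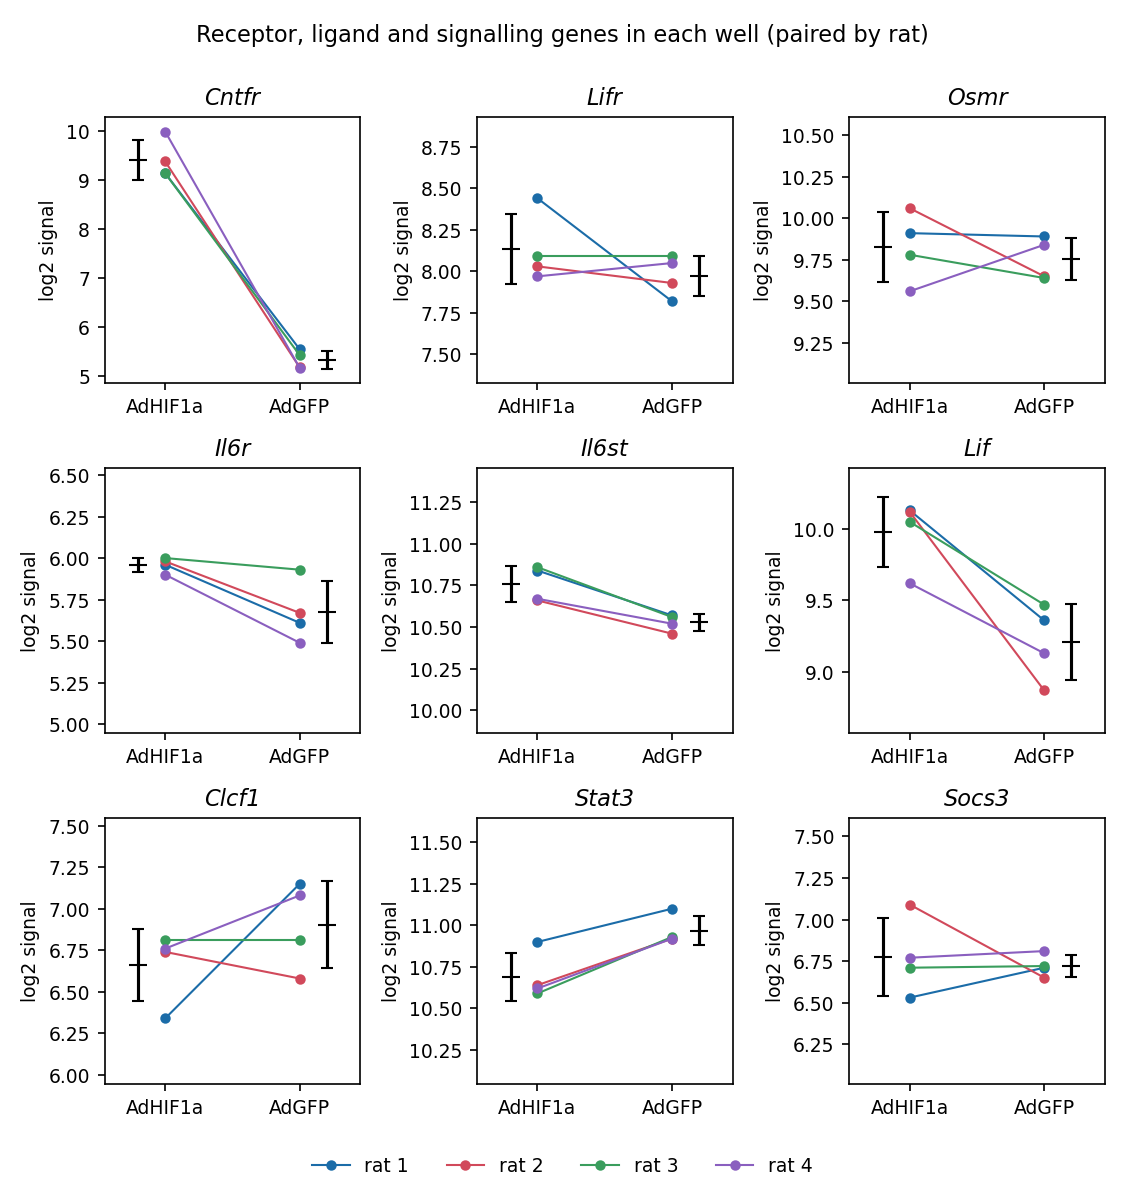
Log2 signals of the 9 genes (y axes, each with its own range) in the AdHIF1a well and the AdGFP well of rats 1 to 4 (points, with a line for each rat); black bars are the group mean and SD. Cntfr is at 9.14 to 9.99 with AdHIF1a and 5.17 to 5.55 with AdGFP, Lif, Il6st and Stat3 part the groups by smaller gaps, and the other 5 genes overlap.

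Lif (probe set 17691166, chr14:83354602-83364053), the gene of leukaemia inhibitory factor, had the next largest difference of the 9 genes. Its log2 signal was 10.13, 10.12, 10.05 and 9.62 in the AdHIF1a wells of rats 1 to 4, and 9.36, 8.87, 9.47 and 9.13 in their AdGFP wells. The groups did not overlap, and the AdHIF1a well of rat 4 was low against the other three. The difference was 0.77 ± 0.15 (SE), or 1.71-fold (95% interval 1.33 to 2.20), and ran from 0.49 in rat 4 to 1.25 in rat 2.

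Clcf1 (probe set 17622900, chr1:210937763-210947064), cardiotrophin-like cytokine factor 1, is a ligand of the ciliary neurotrophic factor receptor. It had log2 signals of 6.34, 6.74, 6.81 and 6.76 in the AdHIF1a wells of rats 1 to 4, against 7.15, 6.58, 6.81 and 7.08 in their AdGFP wells. The groups overlapped, and rat 1 had the lowest AdHIF1a and the highest AdGFP value. The difference was -0.24 ± 0.18 (SE; 95% interval -0.68 to 0.19), and -0.05 without rat 1.

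Stat3 (probe set 17661537, chr10:86311528-86363513), the transcription factor that the receptors activate, had log2 signals of 10.90, 10.64, 10.59 and 10.62 in the AdHIF1a wells of rats 1 to 4, and 11.10, 10.92, 10.93 and 10.92 in their AdGFP wells. The groups only just failed to overlap, since the AdHIF1a well of rat 1 lay close to the AdGFP wells of the other rats. The value was lower with AdHIF1a in all 4 rats, by 0.20 to 0.34. The difference was -0.28 ± 0.08 (SE), or 1.21-fold lower (95% interval -0.48 to -0.08 on the log2 scale), and only 4.35% of genes had differences that varied less between rats. An mRNA level says nothing of the phosphorylation through which STAT3 acts.

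Socs3 (probe set 17663683, chr10:103692579-103695975), the feedback inhibitor that STAT3 is known to induce, had log2 signals of 6.53, 7.09, 6.71 and 6.77 in the AdHIF1a wells of rats 1 to 4, against 6.71, 6.65, 6.72 and 6.81 in their AdGFP wells. The AdGFP wells lay close together, and the AdHIF1a wells reached to both sides of them, with rat 2 highest and rat 1 lowest. The difference was 0.05 ± 0.13 (SE; 95% interval -0.26 to 0.37). The sign turned with quantile normalization (-0.02), after median centring (-0.03) and without rat 2 (-0.08).

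Of the 9 genes, Cntfr and Lif were called, both higher, and 7 were not. The background of 13.4% is given above, and since the members were chosen with this contrast known, nothing is read from their count. The call of Lif was lost in each of the 4 fits that left out 1 rat. In 4 of the 9 genes the wells of the groups did not overlap, which held for 22.5% of all genes. The median difference of the 9 genes was 0.16, against -0.005 over all genes. By rat their median was 0.27, 0.31, 0.07 and -0.04 in rats 1 to 4, with 6, 8, 5 and 4 of them higher. The wells were bulk samples, in which fewer cells of a type and less RNA per cell cannot be told apart.

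**Figure D2:**
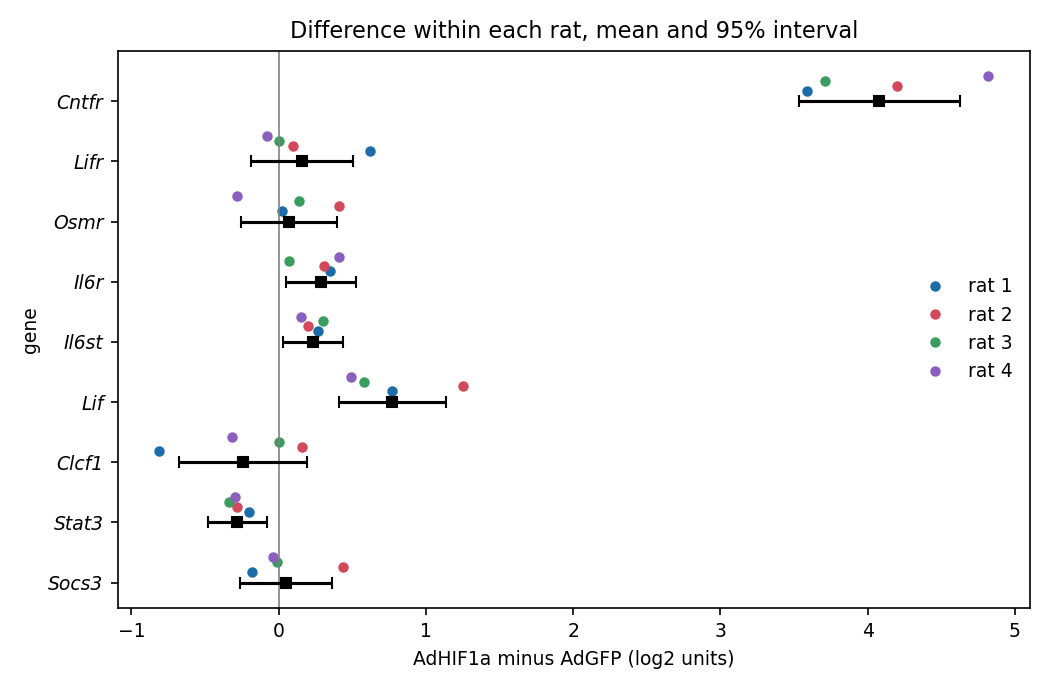
AdHIF1a minus AdGFP in log2 units (x axis) for each gene (y axis), with a point for each rat and a black square with a bar for the paired limma estimate and its 95% interval. Cntfr lies at 4.08 and Lif at 0.77, and the estimates of the other 7 genes lie between -0.28 and 0.285.

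Among other genes of the pathway, 61 of 69 listed were measured and the other 8 were not analysed here. Of the 61, 7 rose and 4 fell, or 18.0% called against 13.4% of all genes, and their median difference was -0.02 against -0.005. These lists, like the members, were chosen with earlier results of these data known. Their counts and p-values are therefore a description and not independent support. The share of 13.4% stands beside each count of calls by role below. An unadjusted p under 0.05 in limma held for 23 of the 61, called genes included, and for 5023 of all 18166 genes. The counts at that threshold below should be read against this share. The other ligands showed no call, with 0 of 7 measured past the threshold in limma and 1 (Ctf1, named after its value was seen) at an unadjusted p under 0.05. Ctf1, cardiotrophin 1, differed by -0.30 ± 0.09 (SE), with an adjusted p of 0.0952 in limma and 0.0481 to 0.0496 in 3 of the alternative fits, one of them added after seeing the data. Cntf, the ligand for which Cntfr is named, differed by -0.13 ± 0.11 (adjusted p = 0.515). Osm, oncostatin M, differed by 0.00 ± 0.15 (adjusted p = 1), and Il11, interleukin 11, by -0.08 ± 0.12 (adjusted p = 0.751). The signals of Il11 averaged 4.92 in AdHIF1a wells and 5.00 in AdGFP wells, close to or below the array medians, and may lie near the floor. Il6, interleukin 6, had log2 signals of 4.96, 4.57, 4.33 and 4.45 in the AdHIF1a wells of rats 1 to 4, against 5.15, 3.63, 4.38 and 3.86 in their AdGFP wells. It lay below the array medians in all wells but the AdGFP well of rat 1, and its difference was 0.32 ± 0.21 (SE, adjusted p = 0.398).

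Among the other receptors and receptor-shedding genes, 1 of 6 measured fell, and 1 other (Il11ra1, named after its value was seen) had an unadjusted p under 0.05. Il11ra1, the interleukin 11 receptor subunit, differed by -0.39 ± 0.12 (SE, limma adjusted p = 0.106, and 0.0370 without rat 1). Sort1, the gene of sortilin, a sorting receptor that binds ciliary neurotrophic factor and related ligands, had log2 signals of 9.50, 9.15, 9.40 and 8.82 in the AdHIF1a wells of rats 1 to 4, and 10.23, 10.38, 10.02 and 10.36 in their AdGFP wells. The groups did not overlap. The fall was 2.04-fold (95% interval 1.51 to 2.77, limma adjusted p = 0.0202), seen in 4 of 4 rats. None of the 6 adaptors passed in limma, and 1 (Sos1, named after its value was seen) had an unadjusted p under 0.05.

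Of 8 measured kinases and other STATs, 2 rose and 0 fell, with 0 of the others at an unadjusted p under 0.05. Stat6, the transcription factor of interleukin 4 and interleukin 13 signals, which does not serve gp130, had log2 signals of 11.31, 11.36, 11.04 and 11.41 in the AdHIF1a wells of rats 1 to 4, and 10.42, 10.25, 10.21 and 10.21 in their AdGFP wells. The groups were well apart, with a difference of 1.01 ± 0.10 (SE), or 2.01-fold (1.69 to 2.39, limma adjusted p = 0.00516). Jak2, a Janus kinase used by gp130 among other receptors, was 10.35, 10.12, 10.12 and 9.98 in AdHIF1a wells of rats 1 to 4 and 9.81, 9.42, 9.74 and 9.56 in their AdGFP wells. It rose by 0.51 ± 0.09 in 4 of 4 rats without overlap (adjusted p = 0.0243). Jak1, the main kinase of gp130, differed by -0.02 ± 0.08 (adjusted p = 0.918).

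Of 14 inhibitors, 2 fell and 0 rose, and 4 others had an unadjusted p under 0.05, namely Pias2 with a positive and Pias1, Ptpn1 and Ptpn6 with a negative difference (named after their values were seen, limma adjusted p = 0.116 to 0.159). Both that fell are known mainly as feedback genes of STAT5, in growth hormone, prolactin and related signals. Socs2 had log2 signals of 8.39, 8.29, 8.77 and 7.87 in the AdHIF1a wells of rats 1 to 4, against 9.65, 9.53, 9.72 and 9.82 in their AdGFP wells. It was lower by a wide margin in every rat, 2.55-fold on average (95% interval 1.89 to 3.44, limma adjusted p = 0.00959). Cish had 8.92, 8.74, 8.54 and 8.23 in the AdHIF1a wells of rats 1 to 4, against 9.81, 9.15, 9.24 and 9.33 in their AdGFP wells. The groups did not overlap, and the fall was 1.71-fold (1.36 to 2.15, adjusted p = 0.0202). Stat5a and Stat5b themselves, named after their values were seen, differed by 0.00 ± 0.09 and -0.02 ± 0.08 (adjusted p = 0.990 and 0.923). Their mRNA levels say nothing of STAT5 activity, and its part in the falls of Socs2 and Cish was not tested. Socs1, like Socs3 a direct inhibitor of Janus kinases, differed by 0.36 ± 0.19 (adjusted p = 0.288), and Pias3, an inhibitor of STAT3, by -0.08 ± 0.10 (adjusted p = 0.688).

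Genes known to respond to STAT3 in other settings went both ways, with calls in 6 of 20 measured, 5 higher and 1 lower, and a median difference of -0.04. That is 30% called against 13.4% of all genes, in a list chosen with earlier results of these data known, so nothing is read from the count. Hp, the acute-phase plasma protein haptoglobin, had log2 signals of 6.56, 6.97, 6.32 and 7.0 in the AdHIF1a wells of rats 1 to 4, against 5.24, 5.68, 5.38 and 5.43 in their AdGFP wells. It rose 2.43-fold (95% interval 1.96 to 3.00, limma adjusted p = 0.00463) with no overlap. Cebpb, a transcription factor of the acute-phase response, was 8.61, 8.58, 8.35 and 8.65 in AdHIF1a wells of rats 1 to 4 and 7.42, 7.45, 7.64 and 7.50 in their AdGFP wells, a rise of 2.06-fold (1.70 to 2.51, adjusted p = 0.00638).

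Timp1, an inhibitor of metalloproteinases, rose by 0.60 ± 0.10 (adjusted p = 0.0171 in limma), and the immediate early gene Junb by 0.36 ± 0.08 (adjusted p = 0.0414). Fos, its partner in the AP-1 complex, was 7.62, 6.80, 6.13 and 6.31 in the AdHIF1a wells of rats 1 to 4 and 6.58, 6.24, 5.21 and 5.57 in their AdGFP wells. The rats differed widely, so that the groups overlapped while every rat rose, by 0.82 ± 0.11 on average (adjusted p = 0.0108, and 0.212 without the rat as a block). Bcl3, a co-regulator of NF-kB, lay at 7.17 to 7.28 in AdHIF1a wells, against 7.67 to 8.05 in AdGFP wells, and fell by 0.59 ± 0.10 (adjusted p = 0.0181). Of the 14 genes of this list that were not called, 5 had an unadjusted p under 0.05, namely Bcl2l1 at 0.40 ± 0.11 and Ccnd1, Pim1, Il4r and Nnmt at -0.395 to -0.475 (limma adjusted p = 0.0572 to 0.172, named after their values were seen). The 14 include the secreted acute-phase genes Fga, Fgb, Fgg, A2m, Lbp, Lrg1 and Lcn2, with differences of -0.31 to 0.15. Of these, Fga, Fgb and A2m had group means of 3.5 to 4.6, below the array medians, and Lrg1 lay near the medians. Signals at that level may lie near the floor, so a change in these genes could be missed.

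Calls of Hp, Cebpb and Stat6 held in every alternative fit that was run. Each fit without 1 rat lost some of the others: Jak2 and Junb without any rat (limma adjusted p = 0.0597 to 0.122 and 0.0837 to 0.189), Cish without rat 1, 3 or 4 (0.0578 to 0.0870), Bcl3 without rat 2, 3 or 4 (0.0722 to 0.0881), Sort1 and Timp1 without rat 2 or 4 (0.0728 to 0.0981), Fos without rat 3 or 4 (0.0514 and 0.0598) and Socs2 without rat 2 (0.0526). Median centring, which lowers every difference (the median over all genes went from -0.005 to -0.0875), also ended the calls of Jak2 (0.0782), Junb (0.221) and Timp1 (0.0514).

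**Figure D3:**
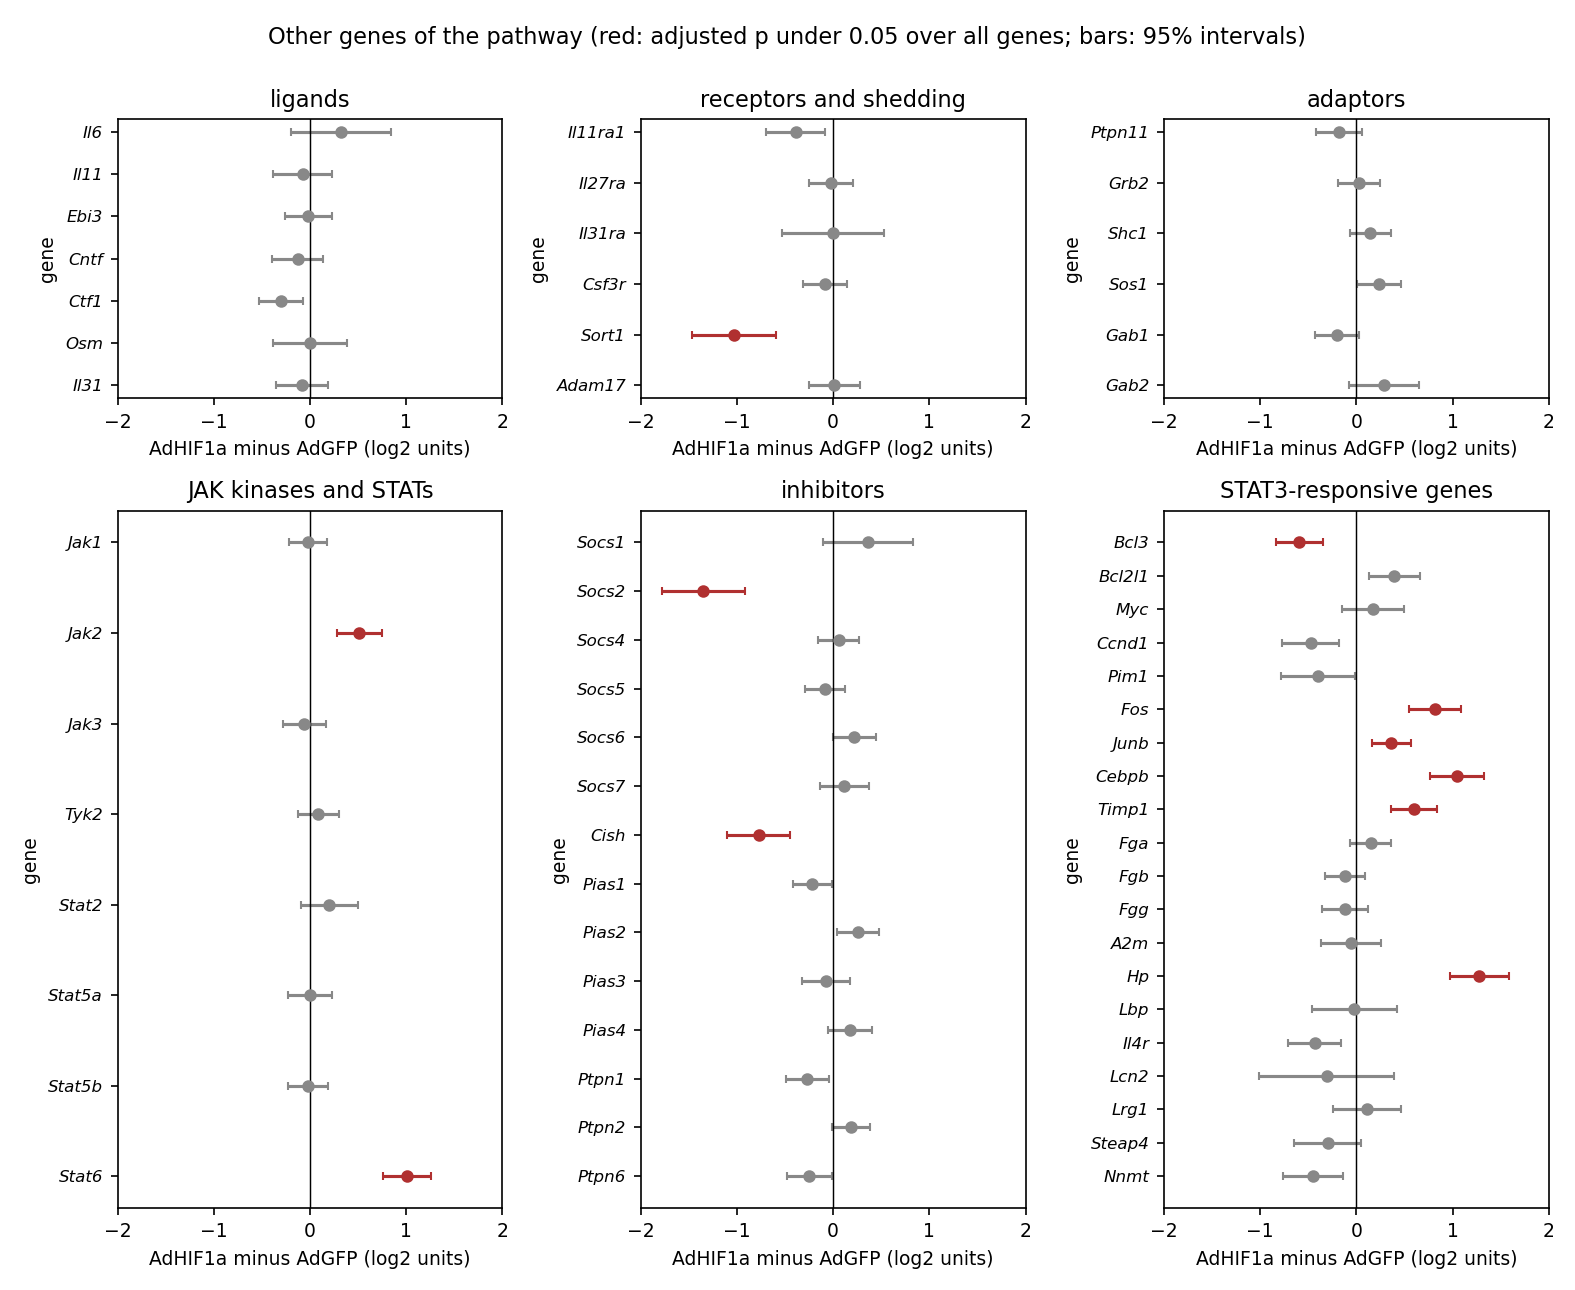
AdHIF1a minus AdGFP in log2 units (x axes, the same range in all panels) for the 61 other pathway genes (y axes) by role, with 95% intervals from the paired limma fit. The 11 called genes are red, from Socs2 at -1.35 to Hp at 1.28, and the ligand and adaptor panels hold none.

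**Figure D4:**
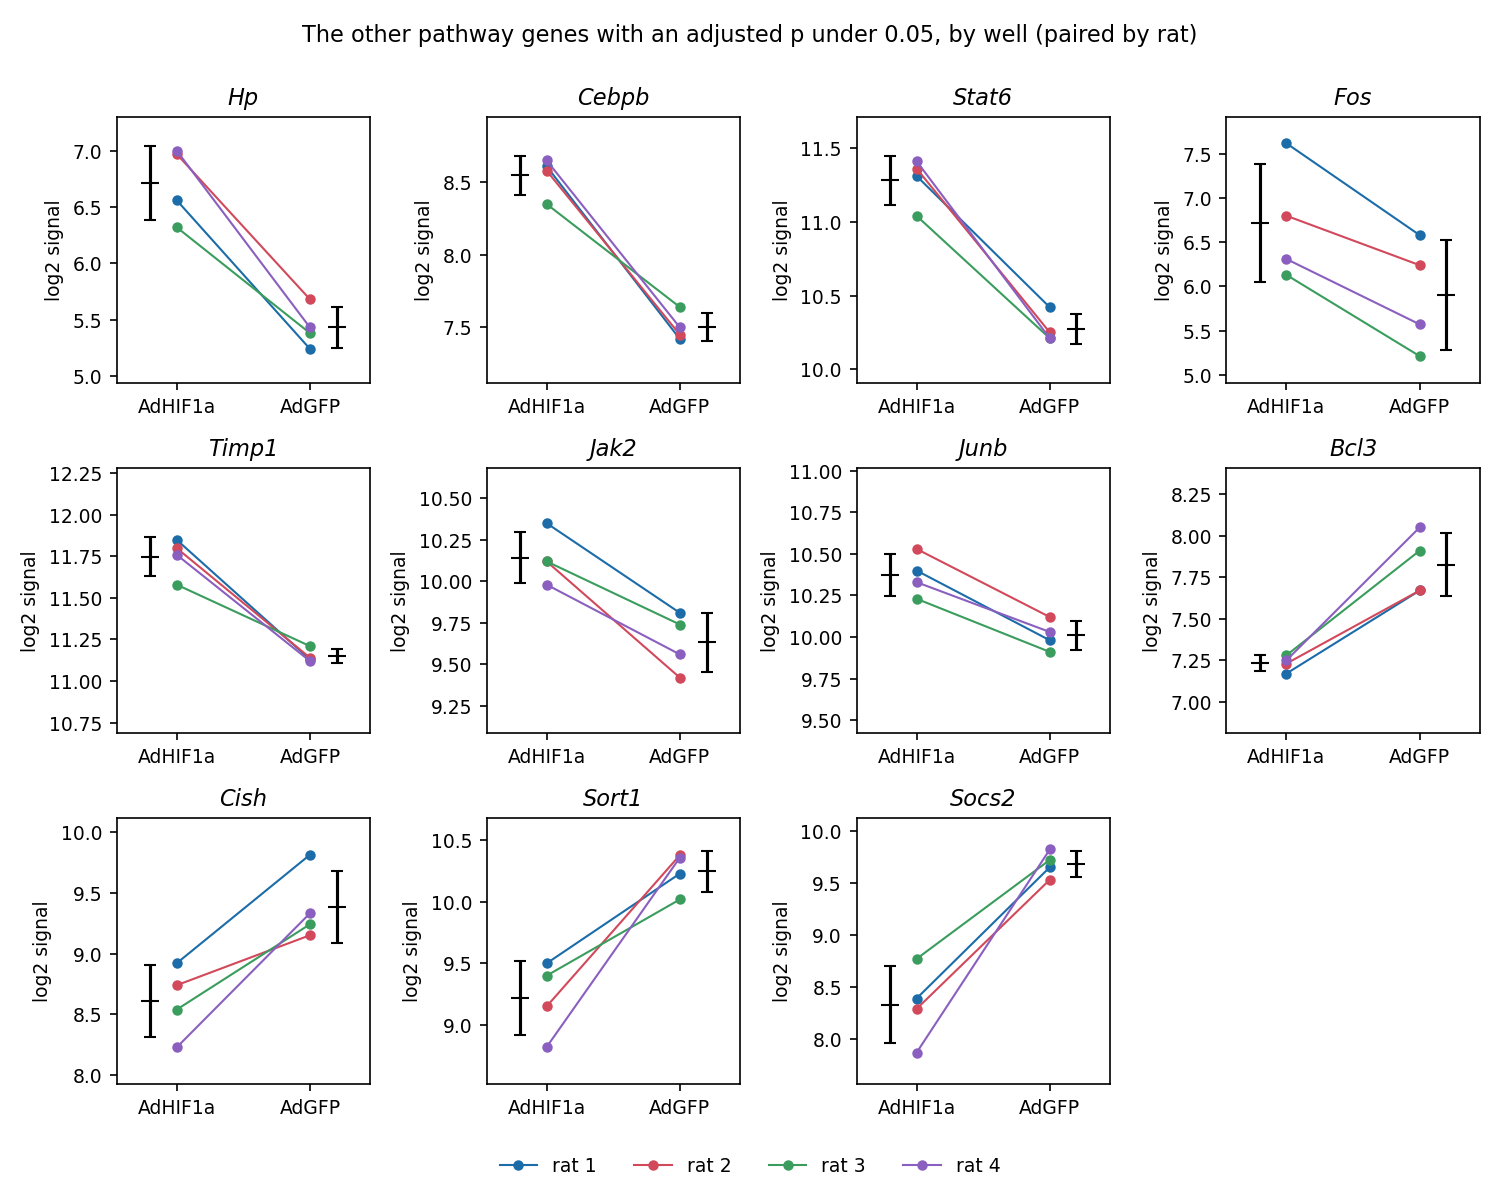
Log2 signals (y axes, each with its own range) of the 11 called pathway genes in the AdHIF1a and AdGFP wells of rats 1 to 4 (points, with a line for each rat), ordered by difference; black bars are the group mean and SD. The first 7, from Hp to Junb, are higher with AdHIF1a and the last 4, from Bcl3 to Socs2, are lower, and Fos is the one whose wells overlap between groups.

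Promoter windows were taken from RefSeq (GRCr8), 250 bases before to 50 after an annotated start, and searched on both strands for the core that HIF binds, ACGTG or GCGTG, and for the STAT motif TTCNNNGAA. The HIF core is in 41.6% and the STAT motif in 8.87% of all 33469 windows. Windows were found for 6 of the 9 genes. Of these, 4 hold a HIF core (Osmr 1, Il6r 5, Stat3 1 and Socs3 3, where CACGTG in Il6r counts on both strands) and 0 a STAT motif. The windows of Lifr and Il6st start 11602 and 11360 bases inside the annotated gene and those of Il6r and Socs3 1496 and 1207, so they are not at the outermost starts of these genes. Of the 11 called pathway genes 8 have a window, of which 7 hold a HIF core and 1, that of Cish, the STAT motif, 4 times. The windows of Sort1 and Timp1 start 3029 and 1456 bases inside their genes. No binding was measured, and a match is only a match of letters.

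The window of Stat3 is shown because it starts near the outer end of its gene, 154 bases inside, that of Jak2 as a called kinase with a HIF core next to its start, and that of Cish for its STAT motifs; they were picked after the matches were seen. Capitals mark HIF cores in Stat3 and Jak2 and STAT motifs in Cish. Stat3 lies at chr10:86363310-86363609 on the minus strand, with its core from base -88 to -84 of the start. Jak2 lies at chr1:236408655-236408954 on the plus strand, with its core from -18 to -14. Cish lies at chr8:116850719-116851018 on the plus strand, with motifs beginning at -241, -230, -136 and -119.
Stat3: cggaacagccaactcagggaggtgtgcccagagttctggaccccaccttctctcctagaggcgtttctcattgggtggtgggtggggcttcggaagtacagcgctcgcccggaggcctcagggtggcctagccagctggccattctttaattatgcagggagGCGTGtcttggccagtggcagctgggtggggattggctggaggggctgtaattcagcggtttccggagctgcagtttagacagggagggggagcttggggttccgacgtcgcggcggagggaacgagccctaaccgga
Jak2: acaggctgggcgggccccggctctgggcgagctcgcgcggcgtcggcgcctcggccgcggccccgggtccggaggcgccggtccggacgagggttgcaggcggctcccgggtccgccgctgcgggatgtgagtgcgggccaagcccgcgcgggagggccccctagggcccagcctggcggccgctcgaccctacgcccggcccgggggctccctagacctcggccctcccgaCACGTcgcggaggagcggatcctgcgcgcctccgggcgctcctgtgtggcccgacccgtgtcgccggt
Cish: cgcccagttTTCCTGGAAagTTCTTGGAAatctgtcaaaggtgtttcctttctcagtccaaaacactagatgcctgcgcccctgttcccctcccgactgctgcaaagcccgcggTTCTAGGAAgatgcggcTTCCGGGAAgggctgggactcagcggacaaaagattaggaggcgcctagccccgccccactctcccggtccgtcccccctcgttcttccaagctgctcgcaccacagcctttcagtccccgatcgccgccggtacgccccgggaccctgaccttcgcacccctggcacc

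The 5 genes whose log2 signals ran most like those of Cntfr over the 8 arrays were Prdm4, Dhodh, Ascl2, Tex30 and Stc1, with Pearson's r from 0.995 to 0.998. Prdm4, a zinc finger gene, averaged 10.71 ± 0.08 in AdHIF1a wells and 9.68 ± 0.06 in AdGFP wells (SD), and Dhodh, an enzyme of pyrimidine synthesis, 10.06 ± 0.21 in AdHIF1a wells and 7.84 ± 0.11 in AdGFP wells. The transcription factor gene Ascl2 and the stanniocalcin gene Stc1 had larger differences than Cntfr (4.78 ± 0.13 and 5.47 ± 0.12, SE), and Tex30 a smaller one (0.75 ± 0.09). All such genes share the parting of the viruses, so the likeness is that of genes that separate the groups.

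The wells carried ATII markers, with Sftpc, the surfactant protein C gene, at 12.62 ± 0.13 in AdHIF1a wells and 12.34 ± 0.17 in AdGFP wells (SD). The mean log2 signal of 8 such markers ran from 9.93 to 10.44 in AdHIF1a wells and from 10.12 to 10.62 in AdGFP wells, with Sftpa1 and Sftpb higher and Lamp3 and Napsa lower. The mean log2 signal was lower with AdHIF1a in 4 of 4 rats for the markers of ATII cells, epithelium, macrophages, lymphocytes and ciliated cells. For ATII cells this depended on the measure: 4 of the 8 markers had a positive difference, and their summed linear signal was higher with AdHIF1a in 3 of 4 rats. Of 5 epithelial markers, Epcam, Cdh1 and Cldn18 fell, by 0.35 to 0.53, while Krt8 and Krt18 had small positive differences (0.09 and 0.13) and were not called. The mean of 9 macrophage markers ran from 6.82 to 7.77 in AdHIF1a wells and from 7.31 to 7.92 in AdGFP wells, with 3 positive and 6 negative differences. Of the 9, 1 fell (Adgre1, -0.54 ± 0.12, limma adjusted p = 0.0434), with means of 3.83 in AdHIF1a wells and 4.37 in AdGFP wells, below the array medians. An unadjusted p under 0.05 in limma held for 5 of the 9, Adgre1 included. The others, named after their values were seen, had group means above the array medians and were not called (adjusted p = 0.0586 to 0.174). Mrc1 (-0.82 ± 0.21), Csf1r (-0.46 ± 0.12) and Ptprc (-0.265 ± 0.10) were lower with AdHIF1a in 4 of 4 rats. Lyz2 (0.30 ± 0.10) was higher in 4 of 4. The summed linear signal of the 9 markers ran the other way, 8064 to 9635 in AdHIF1a wells and 6871 to 8445 in AdGFP wells, led by Lyz2, which ATII cells also express. Macrophages also express Il6r and Socs3, and the part of these cells in any value above was not tested. Markers of lymphocytes, fibroblasts and endothelium had list means of 4.41 to 4.70 in AdHIF1a wells and 4.33 to 4.92 in AdGFP wells, below the array medians, with 0 of 15 called in limma and 1 at an unadjusted p under 0.05. Some single markers lay above the medians, among them Nkg7, Cd79b and Col1a1, with means of 5.72 to 6.14 in AdHIF1a wells and 5.855 to 6.46 in AdGFP wells. Of 3 ciliated cell markers, Tppp3 and Ccdc39 fell, by 1.23 and 0.49.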

How the data were processed

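Per the labels' protocols, total RNA of each well was labelled with biotin and hybridised to 1 array. The authors deposited 1 log2 signal per probe set, made with Affymetrix Expression Console per the submitters' processing notes. Its summarization and normalization algorithm, version and genome build are not stated there. That the scale is log2 follows from the range of the values. The upper quartile ran from 7.62 to 7.68 over the arrays, which thus shared a scale before analysis, and a general shift of all transcripts would not be seen. The number of arrays limits the precision.

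By the platform annotation, 18511 of 36685 probe sets carried 1 gene symbol, 575 several and 17599 none. A gene was represented by its brightest probe set on average. All probe sets were fitted in R 4.3.3 by lmFit and eBayes of limma 3.58.1, with a fixed term for the rat. Two-sided p-values were adjusted by Benjamini-Hochberg over 18166 genes. The series' design states the pairing. Deviations from group means correlated at 0.18 to 0.26 between the wells of a rat and at -0.22 to 0.08 between wells of different rats. At most 1.95% of values were equal between any 2 arrays.

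The 9 members and all lists were chosen with earlier results of these data known. The genes named are all members, up to 6 called genes of each role list, Il6, Il11, Osm, Cntf, Jak1, Jak2, Socs1, Pias3 and Timp1 whatever their result, the 5 genes most like Cntfr, and marker genes; exceptions are said where they occur. Alternatives were no block, quantile normalization, median centring, a filter on dim probe sets, a trended and robust variance prior, averaging a gene's probe sets, and leaving out each rat. A variance prior from the named genes alone was added after seeing the data. The code of the fit was also run on simulated data with independent noise and set changes, which does not bear on the calls reported here.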

Additional observations from a re-analysis of the deposited data

Results flagged for a closer look

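In 4 of 27 groups of 4 values examined for the 9 genes (the AdHIF1a wells, the AdGFP wells and the differences within rats of each), 1 value lay far from the other three by Dixon's criterion, where chance gives about 1 in 20. The AdHIF1a well of rat 4 was low for Lif, at 9.62 with the others at 10.05 to 10.13. Stat3 was high in both wells of rat 1, at 10.90 in the AdHIF1a well and 11.10 in the AdGFP well, and its difference in that rat, -0.20, was the smallest in size. The AdHIF1a well of rat 1 was low for Clcf1, at 6.34 with the others at 6.74 to 6.81. The causes were not tested.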

How the results depend on the processing

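The called members and other pathway genes kept their direction in all alternatives run for them; the marker genes were not refitted gene by gene. With the variance prior of the named genes alone, 3674 genes were called (1576 higher) in place of 2443 (1032 higher). Median centring, which lowers every difference, gave 635 higher and 1324 lower. Without the replicate block, 2951 genes were called. Leaving out 1 rat gave 561 to 2006 calls, 315 to 775 higher and 246 to 1231 lower; the lowest count came without rat 2, with 625 calls without rat 4 and 1117 without rat 3. Called members that were higher numbered 2 in the full fit, 3 with the trended and robust prior (Il6st added) and 1 to 1 without any rat, since the call of Lif was lost each time. Members called lower numbered 0 in the full fit and without any rat (0 to 0), and 1 with the filter on dim probe sets, the trended prior or the prior of the named genes alone, where Stat3 passed. Of the other pathway genes, 7 higher and 4 lower became 4 higher after median centring, 8 lower with the filter, the trended prior or the prior of the named genes alone, 7 higher and 5 lower without the replicate block, and 3 to 5 higher and 1 to 5 lower without 1 rat. Among the members and the other pathway genes, removing the block ended the call of Fos and no other. Whether Stat3 and Il6st passed thus depended on the setting.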

Other observations

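Several acute-phase and interferon-related genes of the lists, picked after their values were seen, varied more between rats in AdGFP wells than in AdHIF1a wells. Lcn2, the gene of lipocalin 2, was 10.29, 9.67, 9.82 and 8.96 in the AdHIF1a wells of rats 1 to 4, against 11.12, 9.12, 10.84 and 8.90 in their AdGFP wells. The AdGFP wells of rats 1 and 3 were thus higher than those of rats 2 and 4. The same held for Socs1, with 6.80, 6.93, 6.72 and 6.84 in AdHIF1a wells and 6.94, 6.16, 6.65 and 6.09 in AdGFP wells, and for Il6 and Stat2. For Socs1 the SD was 0.09 in AdHIF1a wells and 0.41 in AdGFP wells. The lists as a whole did not show it: the SD was larger in AdGFP wells for 25 of 61 other pathway genes and for 7959 of 18166 genes. No cause was tested.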
